A study of Mus musculus with 48 samples.

Results

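Of 15392 intervals bound by FLAG-tagged wild-type (WT) CTCF in mouse embryonic stem cells, 2499 stood on 2 or more lines of the deposited peak list. A peak caller writes 1 line for each summit, a local maximum of signal inside a bound interval, and an interval on several lines is called multi-summit here. The remaining 12893 intervals stood on 1 line and are called single-summit. The members were therefore chosen by the WT FLAG list itself, so their number of summits, their strength and their width in WT are given as a description, with no test. What the rule did not use is whether FLAG, its summits and the cohesin subunit SMC3 were found at the same places in cells that express a mutant CTCF.

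The cells were of the E14Tg2a line, strain 129/Ola. In all of them endogenous CTCF carried an auxin degron, and each line held a doxycycline-inducible Ctcf transgene. The transgene product was 1 of 9 mutants, each a change in the DNA-binding domain, or WT CTCF. Changes of arginine gave R339Q, R342C, R377C, R377H and R448Q, and changes of other residues gave S354F, K365T, Q418R and H455R. Mutant and WT cells alike received 500 µM indole-3-acetic acid (IAA), which degrades the endogenous protein, and 1 µg/ml doxycycline for 2 days, so the transgene was expressed from an inducible promoter and not from the Ctcf gene. The assay was ChIPmentation, a chromatin immunoprecipitation in which a transposase adds sequencing adapters to the bound chromatin. It used antibodies to FLAG and to SMC3 in all 10 genotypes, and to CTCF in treated and in untreated WT cells. Each of the 22 lists used pools 2 replicates, so a genotype gave 1 value, the spread between replicates is unknown, and tests run over the 9 mutants. All 9 are compared with the same WT list and are not independent of each other. Intervals in parentheses are 95% Wilson intervals over peaks and cover counting error only, and the read depth behind the lists is unknown.

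CTCF holds its DNA site with an array of zinc fingers, of which the central ones read a core motif. Cohesin, a ring that contains SMC3 and extrudes loops of chromatin, is halted at many CTCF sites, so the 2 proteins are often found at the same places. A broad or doubled signal at a CTCF site can hold more than 1 copy of the motif, but the interval sequences outside promoters were not analysed here, and a summit is a feature of the signal, not a count of bound molecules.

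The members that lie over promoters show what such DNA looks like. A promoter window of 300 bases, from 250 before to 50 after the start of a gene in RefSeq (GRCm38.p6, the assembly that mm10 names), overlapped 112 multi-summit intervals (4.48%) and 527 single-summit intervals (4.09%). On both strands, the windows were searched for a word of 12 bases, CC, any 3 bases, AG, any 2 bases and GGC, a loose form of the core of the CTCF motif, and no other motif was searched. No match was held by 69 of the 134 windows over multi-summit intervals (51.5%, 43.1 to 59.8) and by 318 of the 595 windows over single-summit intervals (53.4%, 49.4 to 57.4), against 91.4% of all 32817 windows. More than 1 match was held by 7 windows over multi-summit intervals (5.22%, 2.55 to 10.4) and by 24 windows over single-summit intervals (4.03%, 2.73 to 5.93), against 0.585% of all windows. The windows over the 2 kinds of interval thus differed by less than their counting intervals, and a match is only a match of letters. Some windows share bases, such as those of Gm40733 and Gnptab, so they are not independent counts. A match in a window can also lie outside the bound interval.

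The upstream stretches of 4 such promoters are printed on the strand of the gene, 5′ to 3′, with the matches in capitals. Ube2cbp, Lsm11 and Gclm are shown as examples that hold 2 separate matches within an interval of 2 summits, and Trappc5 because it is a strong member with 1 match, as a contrast.
Ube2cbp, chr9:86464917-86465166, minus strand: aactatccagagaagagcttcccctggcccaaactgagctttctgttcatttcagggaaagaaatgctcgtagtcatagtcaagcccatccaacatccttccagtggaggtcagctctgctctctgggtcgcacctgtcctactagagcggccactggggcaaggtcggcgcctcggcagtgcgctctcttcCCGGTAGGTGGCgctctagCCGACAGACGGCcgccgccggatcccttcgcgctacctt
Lsm11, chr11:45944936-45945185, minus strand: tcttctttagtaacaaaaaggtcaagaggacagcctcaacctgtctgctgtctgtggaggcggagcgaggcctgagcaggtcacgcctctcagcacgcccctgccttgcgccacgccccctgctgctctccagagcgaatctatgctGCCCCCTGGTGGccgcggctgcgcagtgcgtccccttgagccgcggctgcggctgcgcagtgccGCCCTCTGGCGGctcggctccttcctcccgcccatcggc
Gclm, chr3:122245308-122245556, plus strand: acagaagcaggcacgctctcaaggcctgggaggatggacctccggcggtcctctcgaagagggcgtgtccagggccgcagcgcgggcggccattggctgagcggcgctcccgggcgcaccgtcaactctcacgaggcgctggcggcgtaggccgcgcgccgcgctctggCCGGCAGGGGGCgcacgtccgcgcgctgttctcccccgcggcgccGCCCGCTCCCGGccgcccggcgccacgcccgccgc
Trappc5, chr8:3676227-3676476, plus strand: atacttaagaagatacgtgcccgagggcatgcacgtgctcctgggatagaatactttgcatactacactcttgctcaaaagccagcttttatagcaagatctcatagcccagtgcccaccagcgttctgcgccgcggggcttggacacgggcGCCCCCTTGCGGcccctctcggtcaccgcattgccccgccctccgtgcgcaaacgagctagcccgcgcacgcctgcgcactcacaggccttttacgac
These 4 were chosen after their values were seen.

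The 4 promoters behaved differently in the mutants. At Ube2cbp, which codes for a ubiquitin ligase, the WT interval had line values of 7.97 and 2.35, and FLAG was present with several summits in all 9 mutants. At Lsm11, which codes for a protein of the histone pre-mRNA processing particle, the values were 5.58 and 2.71. FLAG was kept there in 8 mutants, lost in H455R, and had several summits in R339Q only. At Gclm, the modifier subunit of the enzyme that begins glutathione synthesis, the values were 4.86 and 2.70, FLAG was kept in 7 mutants and 2 of these, R377H and R448Q, had 2 summits. At Trappc5, a component of a vesicle-tethering complex, the values were 2.95 and 14.9. All 9 mutants kept FLAG at Trappc5, but only R339Q and S354F had several summits there. The 3 printed promoters with 2 matches thus had several summits in 9, 1 and 2 mutants, and the 1 with a single match in 2. They are not all such promoters. Elavl4, not printed, holds 2 matches that overlap each other in an interval of 2 summits, and there FLAG was kept in 8 mutants, with several summits in 5.

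In the WT list, multi-summit intervals were stronger and wider than single-summit intervals. The value, a score from the authors' peak caller that can be compared only within a list, had a median of 4.41 (range 1.48 to 22.7) over multi-summit intervals and 3.55 (1.31 to 19.6) over single-summit intervals. Here the value of an interval is the highest over its lines, which by construction tends to rise with the number of lines. The median width was 381 bp (106 to 2565) for multi-summit and 227 bp (96 to 897) for single-summit intervals, and 27.7% and 4.03% of them were over 500 bp. The strongest of 10 deciles of the WT list held 18.8% of the multi-summit intervals, against 8.29% of the single-summit intervals, and the weakest decile held 4.60% and 11.1%.

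Most members had the smallest number of summits that the rule allows. There were 2172 intervals with 2 summits, 277 with 3, 40 with 4 and 7 with 5, and 1 interval each with 6, 7 and 11. Just outside the threshold, intervals with 1 summit had a median value of 3.55 and a median width of 227 bp. Just inside it, intervals with 2 summits had 4.31 and 358 bp, and those with 3 had 5.19 and 539 bp. The 50 intervals with 4 or more had a median value of 6.20 and a median width of 813 bp. The lowest line of an interval went the other way, with medians of 2.87, 2.73 and 2.63 for 2, 3 and 4 or more summits. By construction, the highest of more lines tends to be higher and the lowest lower. The mean over the lines of an interval rose less, with medians of 3.55, 3.68, 3.85 and 3.98 for 1, 2, 3 and 4 or more summits.

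**Figure D1:**
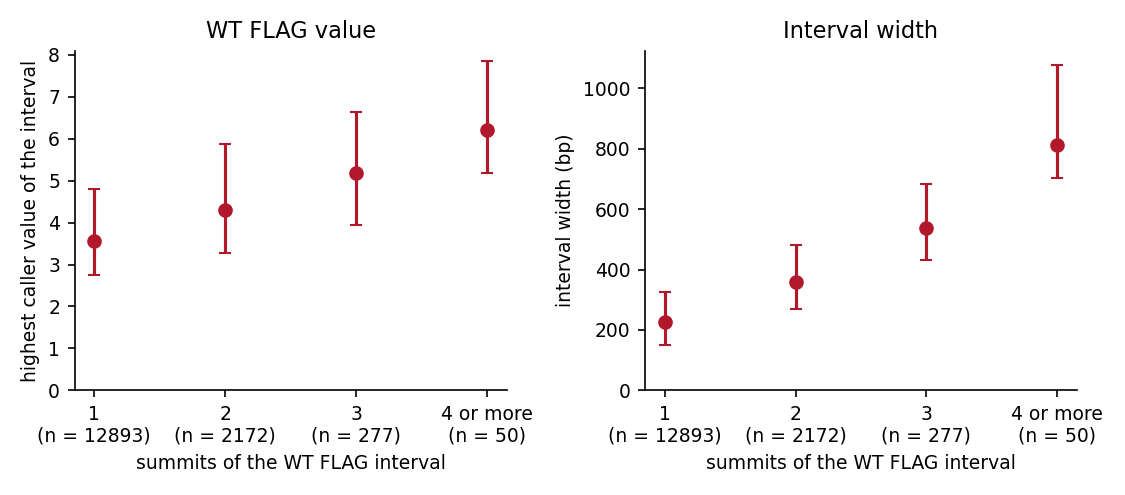
Highest caller value (left, score of the WT FLAG list) and width (right, bp) of WT FLAG intervals by their number of summits; points are medians and bars the quartiles over intervals, with the number of intervals under each. Both medians step up with each added summit, from 3.55 and 227 bp at 1 summit to 6.20 and 813 bp at 4 or more.

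The same places were bound when CTCF was seen with its own antibody. A CTCF antibody peak in treated WT cells lay at 94.3% of multi-summit and 90.5% of single-summit intervals, and in untreated WT cells at 94.4% and 90.6%. Part of this went with strength, so the single-summit share was also computed with each decile of WT values weighted as among the members, which is meant below by equal strength. At equal strength the single-summit shares were 94.7% and 94.8%, so that the differences, multi-summit minus single-summit, were -0.419 and -0.423 percentage points. No multi-summit interval held 2 CTCF antibody peaks in either list, and these lists write 1 line for each interval, so their summits cannot be counted. SMC3 in WT cells lay at 89.2% (88.0 to 90.4) of multi-summit intervals and 79.7% (79.0 to 80.4) of single-summit intervals, 86.1% at equal strength. The difference of 3.16 percentage points at equal strength turned to -4.51 when width was matched as well. Intervals that held 2 or more SMC3 peaks in WT were 49 multi-summit (1.96%) and 17 single-summit (0.132%), matched on neither strength nor width.

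Multi-summit and single-summit intervals lay in similar shares beside, within and between genes. Within 1 kb of a gene end were 14.0% of multi-summit and 14.4% of single-summit intervals, further inside a gene 44.1% and 44.6%, and between genes 41.9% and 41.0%. Only the outer limits of RefSeq gene spans were used, so exon and intron are unknown. Strand was not used either, so a gene end here can be the start of a gene or its far end.

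The first question was whether a mutant CTCF still bound the multi-summit places. Before strength was taken into account, every mutant kept FLAG at a larger share of multi-summit than of single-summit intervals. H455R kept 322 of 2499 multi-summit intervals (12.9%, 11.6 to 14.3) and 10.0% of single-summit intervals, against 10.5% of all WT intervals. R339Q kept 1532 (61.3%, 59.4 to 63.2) and 51.5%, against 53.1% of all. K365T kept 1588 (63.5%, 61.6 to 65.4) and 49.9%, against 52.1% of all. These 3 mutants, with Q418R, kept the smallest shares. Q418R kept 1651 (66.1%, 64.2 to 67.9) and 57.9%, against 59.2% of all. R342C kept 2050 (82.0%, 80.5 to 83.5) and 70.3%, against 72.2% of all. R377H kept 2077 (83.1%, 81.6 to 84.5) and 69.7%, against 71.8% of all. The largest shares were in R448Q, S354F and R377C. R448Q kept 2117 (84.7%, 83.2 to 86.1) and 73.4%, against 75.2% of all. S354F kept 2318 (92.8%, 91.7 to 93.7) and 84.9%, against 86.2% of all. R377C kept 2355 (94.2%, 93.3 to 95.1) and 88.7%, against 89.6% of all. Of the changes to the same arginine, R377C kept more of the members than R377H, a difference between single pooled lists that carries no test. The lists differ in length, with 30462 intervals in R377C, 16473 in R377H and 3855 in H455R. With the 3855 strongest intervals of each list, the share of members kept was 39.0% in R377C, 36.1% in R377H and 12.9% in H455R, and its mean over the 9 mutants was 29.6% in place of 71.2%.

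Most of this lead was gone at equal strength. The mean difference, multi-summit minus single-summit, was 9.38 percentage points without weighting and 1.80 at equal strength (SD 1.28 over 9 mutants), with means of 71.2% and 69.4%. It was positive in 8 of 9 mutants (exact two-sided sign-flip permutation test, p = 0.00781, the smallest possible being 0.00391; Benjamini-Hochberg adjusted over 5 results, p = 0.00977). The largest difference was in R377H, where 83.1% of multi-summit and 79.0% of single-summit intervals were kept, and the exception was Q418R, with 66.1% and 66.3%. The direction turned when intervals of both equal strength and equal width were compared: each of the 9 mutants then kept the members less often (mean difference -4.69 percentage points, range -7.03 to -1.31, exact sign-flip permutation p = 0.00391). The call was also lost with the upper 50% of each mutant list (0.651, p = 0.27) and with a reciprocal overlap of 50% (2.93, p = 0.246), both by the same exact permutation test, and the mean value over lines in place of the highest gave 7.94.

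**Figure D2:**
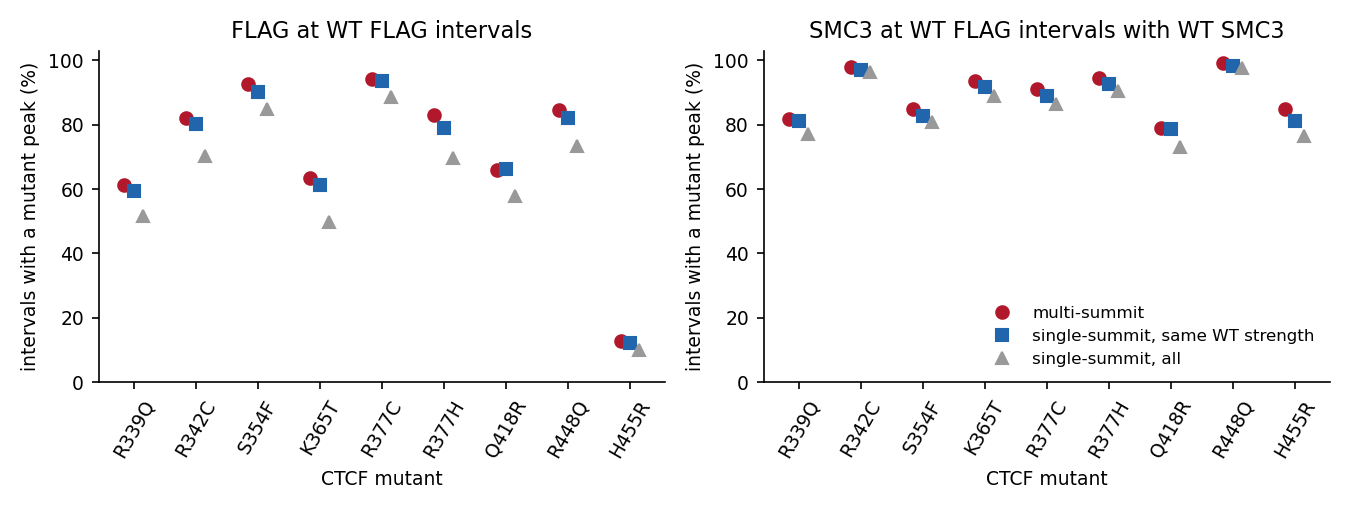
Share of WT FLAG intervals (%) that held a FLAG interval in each mutant (left) and share of those with WT SMC3 that held an SMC3 peak (right); circles are multi-summit intervals, squares single-summit intervals at equal WT strength, triangles all single-summit intervals. Circles stand above the triangles in every mutant and close to the squares, with FLAG shares of multi-summit intervals from 12.9% in H455R to 94.2% in R377C.

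The width of an interval moved with these results. Within the width quintile between 214 and 289 bp wide, the 438 multi-summit intervals kept FLAG in 51.9% of cases on average over the mutants and the 2641 single-summit intervals in 66.5%. Between 289 and 387 bp the shares were 70.5% and 77.7%, and above 387 bp, where 1224 of the 2499 members lie, 82.3% and 85.3%. Among the narrowest intervals, 96 to 147 bp, the shares were 38.1% and 37.9%, with only 30 multi-summit intervals there. Between 147 and 214 bp they were 52.5% and 54.1%, so that in 4 of the 5 quintiles an interval with 1 summit was the one kept more often. Within each of the 5 quintiles the members also had the lower median value, in the 3 widest 3.33 and 3.65, 3.97 and 4.59, and 5.87 and 5.998 for multi-summit and single-summit intervals.

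Along the deciles of WT value, the lead of multi-summit intervals at FLAG lay among the weak ones. In the weakest decile, averaged over mutants, 44.5% of multi-summit and 39.4% of single-summit intervals were kept. In decile 3 the shares were 53.4% and 47.1%. From decile 6 upward the difference lay between -0.0314 and 1.00 percentage points, with 88.1% and 87.1% in the strongest decile. Strength thus separated the intervals over a far wider range than the number of summits did.

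**Figure D3:**
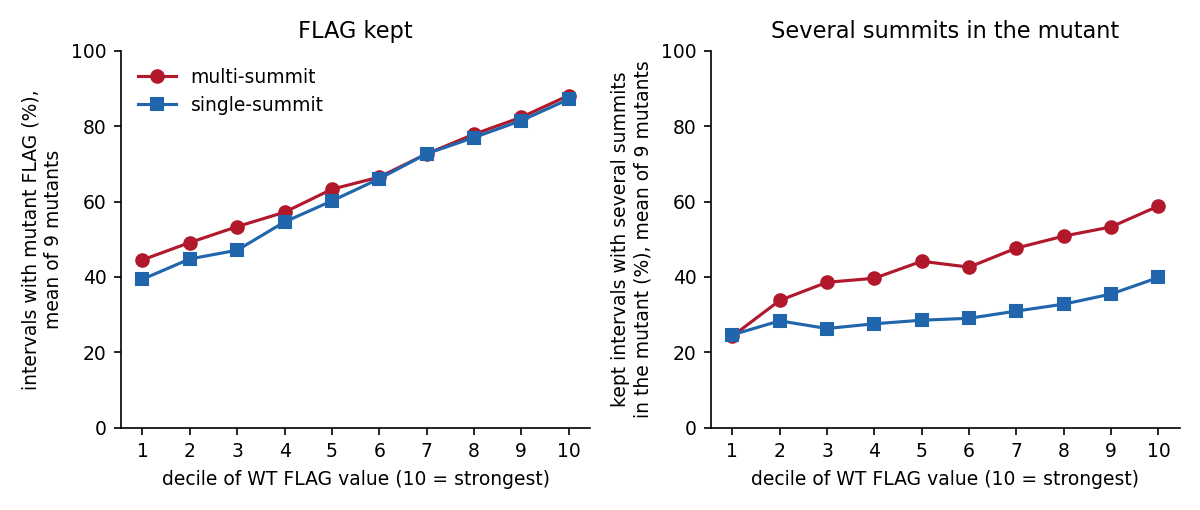
Share of WT FLAG intervals kept (left, %) and share of kept intervals with several summits in the mutant (right, %), averaged over 9 mutants, by decile of the WT FLAG value; circles are multi-summit and squares single-summit intervals. The curves for FLAG nearly meet from decile 6 upward, while those for several summits part from decile 2 upward and end at a difference of 18.95 percentage points.

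The second question was whether a place with several summits in WT had several summits when a mutant bound it. It did so more often than a single-summit place in every mutant. Several summits means that the overlapping mutant interval stood on 2 or more lines, or that 2 or more mutant intervals were hit. In R377C, 1730 of the kept multi-summit intervals (73.5%) and 54.3% of the kept single-summit intervals had several summits, against 57.6% of all kept intervals. R339Q followed with 1054 (68.8%) and 56.3%, against 58.6% of all, and S354F with 1298 (56.0%) and 37.0%, against 40.3% of all. R377H had 1131 (54.5%) and 29.7%, against 34.3% of all. These 4 mutants gave a majority of the kept members several summits. Q418R had 813 (49.2%) and 34.4%, against 37.1% of all. R448Q had 926 (43.7%) and 21.3%, against 25.4% of all. R342C had 735 (35.9%) and 14.2%, against 18.2% of all. The lowest shares were in K365T and H455R. K365T had 537 (33.8%) and 15.5%, against 19.1% of all. In H455R the numbers were 70 (21.7%) and 14.4%, against 15.8% of all.

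At equal WT strength the difference averaged 15.8 percentage points (SD 4.65 over 9 mutants, range 7.89 in H455R to 22.1 in R377H), with means of 48.6% and 32.8%. It was positive in 9 of 9 mutants (exact two-sided sign-flip permutation test, p = 0.00391, the smallest possible; Benjamini-Hochberg adjusted over 5 results, p = 0.00651). At equal strength and width the mean was 11.6, and with intervals matched on their value and width in the mutant list it was 7.77, each positive in 9 of 9 mutants. Intervals with 3 or more WT summits, against those with 1, gave a mean difference of 29.8, and intervals with exactly 2 gave 13.4.

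**Figure D4:**
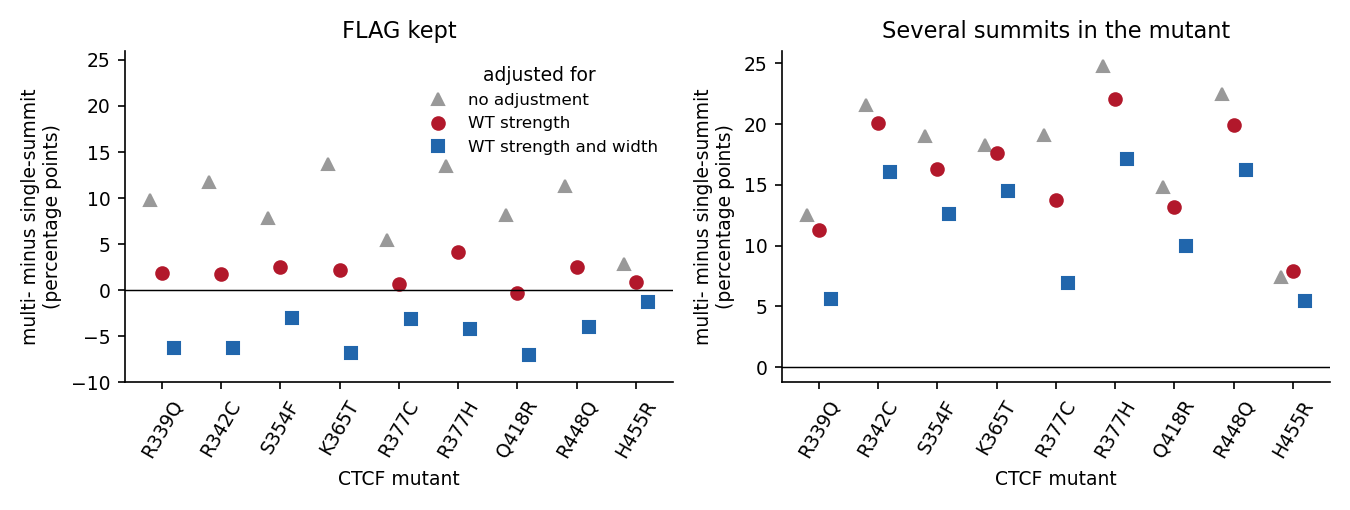
Difference between multi-summit and single-summit intervals (percentage points) in each mutant, for FLAG kept (left) and several summits among kept intervals (right); triangles are without adjustment, circles at equal WT strength, squares at equal WT strength and width. For FLAG the differences pass from a mean of 9.38 through 1.80 to -4.69, and for several summits all points stay above 0, with a mean of 11.6 at equal strength and width.

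The mean share also followed the number of WT summits. Averaged over the mutants, 30.8% of kept intervals with 1 WT summit, 45.9% with 2, 62.8% with 3 and 69.8% with 4 or more had several summits in the mutant. FLAG itself was kept at 61.8%, 69.9%, 78.6% and 84.4% of them, and SMC3, of those with WT SMC3, at 85.3%, 89.1%, 92.7% and 96.6%. Neither set of shares is at equal strength, and the intervals with more summits were the stronger and wider ones. The mean of 69.8% includes H455R, which kept 6 intervals with 4 or more WT summits and had several summits at 0% of them. In Q418R the share with several summits fell from 65.1% at 3 WT summits to 60.5% at 4 or more.

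**Figure D5:**
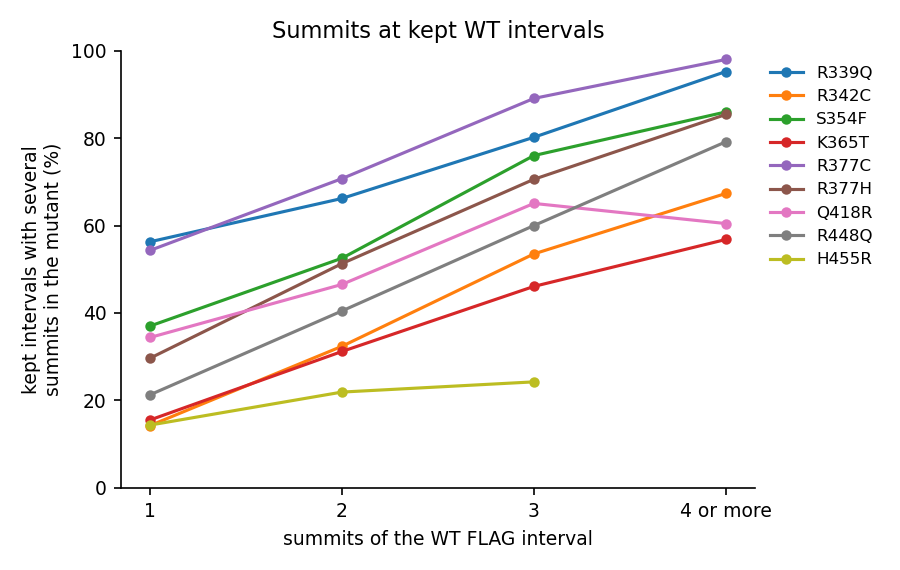
Share of kept WT FLAG intervals with several summits in the mutant (%) by the number of summits in WT, with a line for each mutant; the point of H455R at 4 or more is left out because it kept only 6 such intervals. The lines step up from 1 to 3 summits in all 9 mutants, and among intervals with 2 WT summits they lie between 21.9% in H455R and 70.7% in R377C.

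How many summits a list holds also differed between the mutants. Over the whole list, 36.5% of intervals had several summits in R339Q, 35.2% in R377C, 29.1% in S354F, 26.9% in Q418R, 25.6% in R377H, 18.3% in R448Q, 15.0% in K365T, 13.8% in R342C and 13.3% in H455R, against 16.2% in WT. The order of the mutants among the kept members was close to this order. Compared with WT, 29.2% of the kept members had fewer summits in R377C and 44.3% had more, whereas 80.1% had fewer in H455R. The rule chose members by a high WT number, which favours a fall, and kept single-summit intervals cannot have fewer, so these shares have no comparison. A member was rarely broken into separate intervals. The share of kept members that hit 2 or more mutant intervals ran from 0.17% to 3.90%, the highest being 80 intervals in R342C, and for single-summit intervals from 0.02% to 0.29%. Neither strength nor width was matched for these shares.

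Where FLAG was kept, its rank in the mutant list did not set the members apart at equal strength. Their mean percentile was 66.9, and that of single-summit intervals 67.2. The difference averaged -0.280 (SD 1.07 over 9 mutants) and was positive in 3 of 9 (exact two-sided sign-flip permutation test, p = 0.457, adjusted p = 0.457; range -2.001 in H455R to 1.65 in R377C). Without weighting for strength it was 5.10, and at equal strength and width -0.913, lower in 8 of 9 mutants (exact permutation p = 0.00781).

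The third question was whether cohesin stayed at the members. Of the 2230 multi-summit intervals with an SMC3 peak in WT cells, most had SMC3 in each mutant, and their share was above that of the 10273 single-summit intervals in all 9. The lowest was in Q418R, with 1765 (79.1%, 77.4 to 80.8) and 73.0%, against 74.1% of all. R339Q had 1825 (81.8%) and 77.2%, against 78.0% of all. S354F had 1890 (84.8%) and 80.7%, against 81.4% of all. In H455R, which kept FLAG at the fewest members, SMC3 remained at 1896 (85.0%, 83.5 to 86.4) and 76.4%, against 77.9% of all. R377C had 2035 (91.3%) and 86.4%, against 87.3% of all. K365T had 2087 (93.6%) and 89.0%, against 89.9% of all, and R377H had 2107 (94.5%) and 90.6%, against 91.3% of all. The shares in the other two mutants were near the ceiling. R342C had 2186 (98.0%) and 96.3%, against 96.6% of all. R448Q had 2212 (99.2%, 98.7 to 99.5) and 97.6%, against 97.9% of all. The SMC3 lists also differ in length and in the library tags of their peak names, so these shares cannot be ranked as retention alone. There were 42030 peaks in Q418R, 98168 in H455R, 112747 in R342C and 153647 in R448Q, against 71962 in WT. With the 42030 strongest SMC3 peaks of each mutant list, the mean share of members with SMC3 was 84.7% in place of 89.7%.

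At equal WT FLAG strength the mean difference in SMC3 was 1.64 percentage points (SD 1.06 over 9 mutants, range 0.554 in R339Q to 3.88 in H455R), with means of 89.7% and 88.1%. It was positive in 9 of 9 mutants (exact two-sided sign-flip permutation test, p = 0.00391, adjusted p = 0.00651). At equal strength and width it turned to -3.17, below 0 in 9 of 9 mutants (exact permutation p = 0.00391), and a reciprocal overlap of 50% ended the call (1.93, exact permutation p = 0.27). The peak names of the SMC3 lists carry different library tags; within the 5 mutants tagged b1 alone the mean was 1.88, positive in 5 of 5, where the smallest possible exact permutation p is 0.0625.

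SMC3 was also compared at places where the mutant had no FLAG peak. In all 9 mutants the multi-summit places kept SMC3 at the larger share. In H455R this was so at 1646 of 1965 multi-summit places (83.8%, 82.1 to 85.3) and 74.6% of single-summit places, against 76.2% of all. In R339Q it was 450 of 773 (58.2%) and 55.3%, against 55.8% of all. K365T had 623 of 748 (83.3%) and 77.0%, against 77.9% of all. More than 700 members had lost FLAG in each of these 3 mutants. Q418R had 372 of 694 (53.6%) and 45.4%, against 46.7% of all. R342C had 265 of 288 (92.0%) and 86.9%, against 87.6% of all. R377H had 230 of 281 (81.9%) and 74.6%, against 75.4% of all. A further 3 mutants rest on fewer members. R448Q had 240 of 255 (94.1%) and 91.4%, against 91.7% of all. S354F had 19 of 62 (30.6%, 20.6 to 43.0) and 28.1%, against 28.4% of all. R377C had 19 of 26 (73.1%, 53.9 to 86.3) and 62.9%, against 63.6% of all. At equal strength the difference averaged 5.36 percentage points (SD 3.15 over 9 mutants), positive in 9 of 9 (exact two-sided sign-flip permutation test, p = 0.00391, adjusted p = 0.00651). At equal strength and width it was -2.37, positive in 3 of 9 mutants (exact permutation p = 0.152), and with equal numbers of top peaks it was 1.95, positive in 9 of 9. Between mutants, the multi-summit shares followed the library tags. They were 81.9% to 94.1% in R342C, K365T, R377H, R448Q and H455R, tagged b1 alone, and 30.6% to 73.1% in the others. Mutant and tag cannot be told apart in these shares.

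SMC3 seldom showed more than 1 peak within a member. Among intervals with SMC3 in the mutant, the share with 2 or more SMC3 peaks ran from 0.64% in R448Q to 8.20% in R339Q for multi-summit intervals, and from 0.05% to 1.50% for single-summit intervals. A wider interval can overlap more peaks, and these shares are matched on neither width nor strength. The SMC3 lists write 1 line for each interval, so SMC3 summits could not be counted.

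Counted over the whole mutant lists, most members kept FLAG in 6 or more mutants, 73.3% of them against 58.1% of single-summit intervals. FLAG was present in 9 mutants at 171 members, in 8 at 841, in 7 at 488, in 6 at 332, in 5 at 210, in 4 at 191, in 3 at 113, in 2 at 67, in 1 at 48 and in none at 38. The share bound in all 9 was 6.84% for multi-summit and 4.68% for single-summit intervals, and 7.21% for the single-summit intervals at equal strength. The share bound in none was 1.52% for multi-summit and 5.43% for single-summit intervals, and 2.98% for these at equal strength. Of the 841, 803 lacked FLAG in H455R alone, which is 32.1% of the members, against 3024 single-summit intervals (23.5%). Loss in another mutant alone was seen at 28 members in R339Q (1.12%, against 1.02% of single-summit intervals) and 5 in Q418R (0.200%, against 0.140%). It was seen at 2 members in R342C (0.080%, against 0.039%), 2 in K365T (0.080%, against 0.054%) and 1 in R448Q (0.040%, against 0). In S354F, R377C and R377H it was seen at 0 members, against 2, 0 and 0 single-summit intervals. These are few intervals, with shares near those of single-summit intervals. SMC3 was present in all 9 mutants at 1424 of the 2230 members with WT SMC3 (63.9%) and at 54.4% of such single-summit intervals, 61.8% at equal strength. Several summits recurred in 5 or more mutants at 759 members (30.4%) and 1147 single-summit intervals (8.90%, 12.4% at equal strength), and in no mutant at 278 members (11.1%) and 27.0% of single-summit intervals.

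The strongest member was an interval of 1216 bp inside Cyria, a regulator of the actin cytoskeleton, at chr12:12322808-12324023. Its 4 lines had values of 3.24, 4.86, 4.54 and 22.7, the highest of the WT list. FLAG was kept in all 9 mutants, on 5 lines in R339Q, S354F and R377C, on 4 in R342C and R377H, on 3 in Q418R and R448Q, on 2 in K365T and on 1 in H455R. Cyria thus kept several summits in 8 mutants and lost them, but not FLAG, in H455R. The next strongest lay at a distance from genes, nearest to Setd4, a lysine methyltransferase (chr16:93454048-93454825, values 18.8 and 4.38). FLAG was kept there in all 9 mutants, with several summits in 7, K365T and H455R having 1. Nearest to Cemip2, a cell-surface hyaluronidase (chr19:21747131-21748205, values 18.4 and 2.92), FLAG was lost in H455R and had several summits in the other 8 mutants. The remaining 5 of the 8 strongest lay in Ephb1 and nearest to Tmem45b, Kcns3, Ubash3b and 9530068E07Rik, with highest values from 15.4 to 16.9. FLAG was kept in H455R at Tmem45b and lost in H455R alone at the other 4. SMC3 was present in all 9 mutants at all 8 of these sites.

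The member with the most summits was 2565 bp wide and lay 282 kb from Npvf, a neuropeptide precursor gene, at chr6:50936680-50939244. Its 11 WT lines had values from 2.22 to 10.9. It had 16 lines in R377C, 13 in S354F, 9 in R339Q, 7 in R342C, 6 each in K365T and R377H, 5 in R448Q, 1 in Q418R and 0 in H455R. Pde11a, a phosphodiesterase gene, held an interval of 7 WT lines at chr2:76114553-76116414, with values from 3.57 to 10.4. The mutants had 11 lines there in R339Q and R377C, 10 in R342C and R448Q, 9 in Q418R, 8 in S354F, 6 in K365T and R377H, and 1 in H455R. These 2 places thus stayed divided into many summits in most mutants. Cntnap2, a neural cell adhesion gene, held an interval with 6 WT lines of 2.65 to 5.33 at chr6:45323095-45324316 and differed from them. FLAG was lost in R339Q, Q418R and H455R at Cntnap2, stood on 1 line in R342C and K365T, and on 3, 5, 6 and 11 lines in S354F, R448Q, R377C and R377H. SMC3 was present there in WT and in 5 mutants. Intervals of 5 lines lay near Cycs, the cytochrome c gene, and in Ghrhr, the receptor of growth-hormone-releasing hormone, both with several summits in the 8 mutants other than H455R and without FLAG in that mutant.

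Among the 171 members bound in all 9 mutants, the strongest after Cyria, Setd4 and Tmem45b lay beside Clu and at Trappc5, Ripor3, Psmd6 and Kcnip4. Clu codes for an extracellular chaperone, Psmd6 for a proteasome subunit and Kcnip4 for a potassium channel partner. Their highest values ran from 13.3 to 15.3. Several summits were seen in 8 mutants at Clu, Ripor3 and Kcnip4, in 5 at Psmd6 and in 2 at Trappc5. At Ripor3 the number of lines ran from 1 in S354F to 12 in R377C, and SMC3 was absent in R342C, S354F and R377C although FLAG was present. SMC3 was present in all 9 mutants at the other 4.

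FLAG was absent in at least 7 mutants at 153 members (6.12%) and at 14.4% of single-summit intervals, 8.56% at equal strength. The 7 strong ones described here had highest values from 4.00 to 4.67. In 1700037C18Rik, Nhsl2, Grhl2 and Fam83f FLAG remained only in S354F and R377C. Grhl2 codes for an epithelial transcription factor. Near Cntln it remained in S354F and Q418R, and near Psmb7, a proteasome subunit gene, in R339Q and S354F. The interval nearest to Apob, the apolipoprotein B gene, at chr12:7714095-7714371 stood apart. Its FLAG remained in H455R alone, and it had neither a CTCF antibody peak nor an SMC3 peak in WT cells or in any mutant. SMC3 was present in all 9 mutants at 1700037C18Rik and Cntln, and in 4 to 7 at Nhsl2, Grhl2, Fam83f and Psmb7.

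Members lost in the fewest mutants show the mutants' own losses. Nearest to Spred2, an inhibitor of Ras signalling (chr11:19760935-19761420, values 3.57 and 9.57), FLAG was absent in R339Q alone. Near Robo1, a Slit receptor gene (values 2.45 and 5.93), it was absent in R342C alone, and in Gramd1b (4 lines, highest 4.75) in K365T alone. Near Kbtbd8 (3 lines, highest 8.91) it was absent in Q418R alone, and beside Adrm1, a ubiquitin receptor of the proteasome (2.70 and 3.67), in R448Q alone. For 3 mutants no member was lost in that mutant alone. The strongest of the least shared losses lay near Gpr151 for S354F (with H455R), in Bambi for R377H (with R339Q) and beside Wwox for R377C (with R339Q and S354F). The Wwox interval, with values of 3.12 and 9.09, had no CTCF antibody peak and no SMC3 peak in any list. SMC3 was present in all 9 mutants at Spred2, Gramd1b, Kbtbd8, Adrm1, Gpr151 and Bambi, and in 7 at Robo1.

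Of the 1832 members bound in 6 or more mutants, 119 had several summits in every mutant that bound them (6.50%). The same held for 65 of the 7485 single-summit intervals bound in 6 or more mutants (0.868%), without adjustment for strength. The strongest of the members were near Cemip2 and Foxo1, in Katnal2 and Tjp1, and near 2300002M23Rik and Cycs, and each lacked FLAG in H455R only. Near Foxo1, a forkhead transcription factor gene (chr3:52196264-52196943, values 3.89, 14.5 and 2.92), the mutants had 7 lines in R377H, 6 in R377C, 5 in R339Q, R342C, S354F and Q418R, and 4 in K365T and R448Q. Tjp1, which codes for a tight-junction scaffold, had 2 WT lines (12.3 and 3.02) and from 2 lines in K365T and R448Q to 8 in R339Q. The R339Q list thus held more lines at Tjp1 than the WT list did. Over the whole list, R339Q also had the largest share of multi-summit intervals, 36.5% against 16.2% in WT.

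SMC3 was missing in at least 5 mutants at 117 of the 2230 members that had it in WT (5.25%) and at 979 of 10273 such single-summit intervals (9.53%). These shares are not at equal strength. The strongest of the members lay nearest to Map3k7, Pitrm1, Jrkl, Elovl4 and Mgat4c, with highest FLAG values from 5.998 to 7.85. FLAG was kept there in 7, 8, 6, 7 and 7 mutants and SMC3 in 3, 4, 4, 4 and 3. At Pitrm1, a mitochondrial protease gene, SMC3 was absent in S354F, K365T, R377C, Q418R and H455R, of which only H455R lacked FLAG. At Elovl4, a fatty acid elongase gene, SMC3 was absent in R339Q, K365T, R377C, R377H and Q418R, and only Q418R among these lacked FLAG. Absence of an SMC3 peak was thus not confined to mutants without FLAG at these 2 places. Of the mutants with FLAG but no SMC3 there, only K365T and R377H have SMC3 lists tagged b1 alone. Whether the library tags bear on these absences was not tested.

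Genes of cell identity and of cohesin had few members within 10 kb. Of 12 WT FLAG intervals near pluripotency genes 3 were multi-summit, of 23 near clustered protocadherins 6, of 14 near Hox genes 1, of 17 near imprinted genes 1, of 9 near genes of cohesin, its regulators and Ctcf 2, and of 11 near lineage regulators 3. Beside these, 16.2% of all WT FLAG intervals were multi-summit. No WT FLAG interval lay within 10 kb of the 8 genes of the X inactivation centre. The member beside Sox2, a transcription factor of pluripotency, lay 1943 bp away at chr3:34647679-34648052, with values of 2.38 and 5.42. FLAG was kept there in 8 mutants, with several summits in S354F, R377C, R377H, Q418R and R448Q, and SMC3 in all 9. In Nipbl, the cohesin loader (chr15:8450969-8451378, values 2.53 and 5.25), FLAG was kept in 7 mutants and lost in K365T and H455R. The Nipbl interval had no SMC3 peak in WT cells but had SMC3 in 4 mutants, R342C, R377H, R448Q and H455R. In Pcdhgb7, a protocadherin of neuronal identity, FLAG was kept in 8 mutants, in Elf5, a trophoblast factor, in 6, in Grb10, an imprinted adaptor gene, in 5 and in Hoxa3 in 4. SMC3 was present in all 9 mutants at Pcdhgb7, Grb10 and Hoxa3, and in 8 at Elf5.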

How the data were processed

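The text rests on 22 peak lists of a ChIPmentation series of 48 samples in 24 groups, taken from the labels: 10 FLAG, 10 SMC3 and 2 CTCF antibody lists. The IgG control and FLAG in WT cells without treatment were not analysed here. The submitters' processing notes name the build mm10 and the tools MACS2, Bowtie2, deepTools and Trim Galore, without versions or settings. The deposited lists have 5 columns without a header (chromosome, start, end, name and value), and each pools replicates 1 and 2 by its title. Replicate numbers inside some peak names differ from the titles, and the titles were followed. The deposited value is a score; since the sources do not say which measure of the peak caller it is, it was compared only within a list. Between 1.3% and 5.26% of the running peak numbers are missing from the names, so some lines had been removed by the authors, on grounds not stated. Depth per library is unknown, and the length of a list depends on it. Since replicates are pooled, cultures cannot be told from technical repeats.

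Lines of the WT FLAG list with the same chromosome, start and end were joined into 1 interval that took their highest value; all 5394 lines of repeated intervals, and no other line, have a name that ends in a letter. An overlap of at least 1 bp counted as shared. Single-summit shares were standardised over deciles of the WT value to the members. The difference per mutant was tested by an exact two-sided sign-flip permutation over 9 mutants (512 sign patterns) with Benjamini-Hochberg adjustment over 5 results, and places with lost FLAG were used where at least 20 members had lost it. Alternatives were other overlaps, list lengths, adjustments, site sets and numbers of summits, and leave-one-out over mutants. Those chosen after seeing the data were width deciles, alone and crossed with WT value, deciles of the treated CTCF antibody value, matching on mutant value and width, and the SMC3 tag b1 alone. Members, gene lists and tests were chosen with earlier results of these data known.

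Named sites are the 8 strongest members, the 5 with the most lines, the 8 strongest kept in all mutants, the 8 strongest lost in at least 7, the strongest lost in each mutant and the fewest others, the 6 strongest with several summits wherever kept, the 5 strongest with SMC3 lost in at least 5, and the strongest within 10 kb of each gene list. A site that this rule takes is not reported here. The name is that of the closest protein-coding gene among 34614 gene spans of RefSeq GRCm38.p6; promoter sequences are from the same source. Python 3.11.15, numpy 2.4.6, pandas 2.3.3, scipy 1.17.1 and matplotlib 3.10.9 were used; overlaps were checked against bedtools 2.31.1, and the tests on simulated data.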

Additional observations from a re-analysis of the deposited data

Results flagged for a closer look

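At equal WT strength, Q418R was the only mutant in which multi-summit intervals kept FLAG less often than single-summit intervals, with a difference of -0.281 percentage points, against 0.647 to 4.15 in the other 8 mutants. Whether Q418R differs from them was not tested, since each mutant gives 1 pooled value.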

How the results depend on the processing

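No paired analysis was possible because each list pools its replicates. Values here are multi-summit minus single-summit, in percentage points for shares. The difference in several summits kept its direction and its call in all 27 alternatives, from 7.77 to 29.8. FLAG kept reversed when intervals were matched on width deciles (-6.40), on WT value and width quintiles (-4.69) or on WT value and width deciles (-4.84), and lost its call with a reciprocal overlap of 50% (2.93) and the upper 50% of each mutant list (0.651). Deciles of the mean value over lines gave 7.94 and 4.97 for FLAG kept and SMC3 kept, deciles of the CTCF antibody value 4.81 and 2.64, 3 or more summits 4.53 and 3.13, no standardisation 9.38 and 4.44, and equal numbers of top peaks 0.883 and 1.23. SMC3 kept reversed under the same 3 width settings (-3.51, -3.17 and -3.28) and lost its call with the reciprocal overlap (1.93). With the b1 tag alone (1.88, positive in 5 of 5) no call was possible, since the smallest exact permutation p over 5 mutants is 0.0625. SMC3 where FLAG was lost reversed under the width settings too (-2.39, -2.37 and -2.11) and lost its call with the reciprocal overlap (1.99). With 3 or more summits (6.71, in 5 mutants) and with the b1 tag alone (5.20) no call was possible for the same reason, and both were positive in 5 of 5. For this result, equal numbers of top peaks gave 1.95 and the upper 50% gave 3.51. The mean share of members with FLAG was 71.2%, and 29.6% with equal numbers and 49.4% with the reciprocal overlap. The FLAG percentile, which passed no threshold, was negative and past it under the 3 width settings (-3.70, -0.913 and -1.20). It turned positive with the reciprocal overlap (3.44), the upper 50% (0.297), equal numbers of top peaks (0.0193), no standardisation (5.10), the mean value over lines (5.67), 3 or more summits (1.47) and deciles of the CTCF antibody value (4.10); of these 7, all but the upper 50% and equal numbers of top peaks were past it (exact permutation, largest p = 0.043). Leaving out each mutant gave 1.50 to 2.06 for FLAG kept, 1.36 to 1.78 for SMC3 kept, 15.0 to 16.8 for several summits, -0.521 to -0.0651 for the percentile and 4.60 to 5.96 for SMC3 where FLAG was lost. Of the WT shares, the treated CTCF antibody peak moved to 3.83 without standardisation and -3.34 with value and width, the untreated one to 3.77, -3.28 and, with the reciprocal overlap, 0.979. The WT SMC3 peak moved to 9.56, -4.51 and 7.76 in the same order, and the share near a gene end to -2.69 with value and width. The cause of these shifts was not tested. At the 49 named sites, the number of mutants with FLAG moved at 40 with the reciprocal overlap, at 5 with the central 200 bp and at 0 with a match within 500 bp.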

Other observations

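The members differed in how even their summits were. The ratio of the lowest to the highest line value had a median of 0.438, 0.699 and 0.906 in the lower, middle and upper 833 members by this ratio, and the median WT value was 6.65, 4.17 and 3.23. FLAG was kept on average over the mutants at 84.5%, 69.0% and 60.1% of them, which was 1.84, 0.600 and 2.94 percentage points above single-summit intervals of the same decile. Several summits were seen at 54.7%, 47.8% and 41.3% of those kept, which was 17.8, 16.6 and 12.2 percentage points above single-summit intervals of the same decile, higher in 9 of 9 mutants each. The highest value is the denominator of this ratio, so a low ratio tends to go with a strong interval by construction. The members with the lowest ratios had several summits in the mutants most often, also relative to single-summit intervals of the same strength. Their median width was 533 bp, against 364 bp in the middle and 285 bp in the upper members. Neither width nor the number of WT summits was matched here.

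The share of intervals that are multi-summit ran from 12.9% on chromosome X to 18.99% on chromosome 6, with 0 of 1 on chromosome Y. Another WT FLAG interval lay within 1000 bp of 215 members (8.60%, 7.57 to 9.77) and of 941 single-summit intervals (7.30%, 6.86 to 7.76).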
